A study of Mus musculus with 6 samples.

Results

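The 41 genes described here are those of autophagy and mitophagy, taken from a table of 25031 rows by a rule on gene symbols. The rule took every symbol that begins with Atg and a digit, which gave 19 rows, and added 22 named genes that encode kinases, lipid kinase subunits, ATG8 proteins, cargo receptors and mitophagy receptors. The study sequenced RNA of whole mouse kidney in 6 libraries, 3 of animals given vehicle and 3 of animals given (+)CePPy, cerium-doped polypyrrole nanoparticles with a positive charge. All animals were wild-type male C57BL/6 mice, 7 to 8 weeks old, whose kidneys both went through 23 min of ischemia followed by reperfusion (IRI), with the body held at 37 °C. The (+)CePPy group, called CePPy below, received 5 mg/kg into a vein straight after the injury, and the vehicle group received the same volume of saline. Both groups were therefore injured, no uninjured kidney was analysed here, and no source used here gives the time at which the kidneys were taken. The labels do not say that the libraries of a group came from separate animals, so a p-value here reflects only how much these libraries vary, and that variation may be technical.

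Autophagy encloses cytoplasm in a double membrane, the autophagosome, and delivers it to the lysosome. The ULK kinase complex starts the process, a class III phosphatidylinositol 3-kinase complex marks the membrane with PI3P, ATG9 and ATG2 proteins bring in lipid, and conjugation enzymes attach ATG8 proteins (LC3 and GABARAP) to the membrane, where cargo receptors bind. Mitophagy is the removal of mitochondria by this route, and proximal tubule cells, which are rich in mitochondria and sensitive to ischemia, are known to depend on both. Messenger RNA levels do not measure autophagic flux.

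Total counts were between 29762157 and 37415213 per library, and the 41 genes together took between 0.34% and 0.3714% of them. Levels are CPM, counts per 1e6 counts of a library, scaled by the trimmed mean of M values (TMM), on which 1 count was worth between 0.02659 and 0.03334 CPM. Fold changes are log2, CePPy against vehicle, from the quasi-likelihood test of edgeR fitted to 15416 genes, with Benjamini-Hochberg adjustment of the p-values over that number. The tissue label was met by its markers: the tubule genes Slc34a1, Lrp2 and Umod measured at least 563.83 CPM in each library. On the first principal component of all genes, which held 38.46% of the variance, vehicle libraries 1, 2 and 3 had scores of -29.84, -18.14 and -28.71 and CePPy libraries 1, 2 and 3 scores of 56.84, 3.846 and 16.01. CePPy library 1 thus lay farthest from the vehicle libraries and CePPy library 2 nearest to them.

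No autophagy or mitophagy gene passed the adjusted threshold of 0.05: edgeR called 0 of 41, against 0.00649% of all genes tested. DESeq2 also called 0, over the 40 genes to which it gave an adjusted p, against 7.07% of all genes. At an unadjusted edgeR p under 0.05 there were 5 of 41, or 12.2%, against 19.0% of all genes. Of these, Atg10 and Pink1 measured higher values after CePPy (2 genes, background 9.65%), and Atg7, Atg2a and Sqstm1 measured lower values (3 genes, background 9.37%). Without CePPy library 2 the number higher was 5, and without any 1 of the 3 vehicle libraries it was 1. The number lower was 1 without any 1 vehicle library and without CePPy library 3. The share of all genes was not computed for these smaller fits, so these counts have no background. The groups did not overlap for 9 of 41 genes, or 22%, against 26.3% of all genes. Of these, 5 were higher (background 12.3%) and 4 lower (background 14.0%).

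The differences were small. The median log2 fold change of the 41 genes was 0.029 and its interquartile range 0.15, against a median of 0.003 and a range of 0.376 over all genes. On the sign alone, 26 were above 0 and 15 below, against 50.5% and 49.5% of all genes. Only Atg9b, counted between 0 and 31 times per library, had a fold change beyond 0.5 in either direction, which 16.4% of all genes had. The 95% interval lay within plus or minus 0.5 for 33 of 41 genes, against 45.0% of all genes, and within plus or minus 1 for 40 of 41, against 74.4%. Precision rises with the level, and 38 of the 41 had a mean of 10 CPM or more. Of these 38, 33 had an interval within plus or minus 0.5, against 68.0% of the 9707 genes at that level, and 38 had one within plus or minus 1, against 93.6%. Each gene at 10 CPM or more thus had a 95% interval that left out a log2 change of 1 in either direction.

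**Figure D1:**
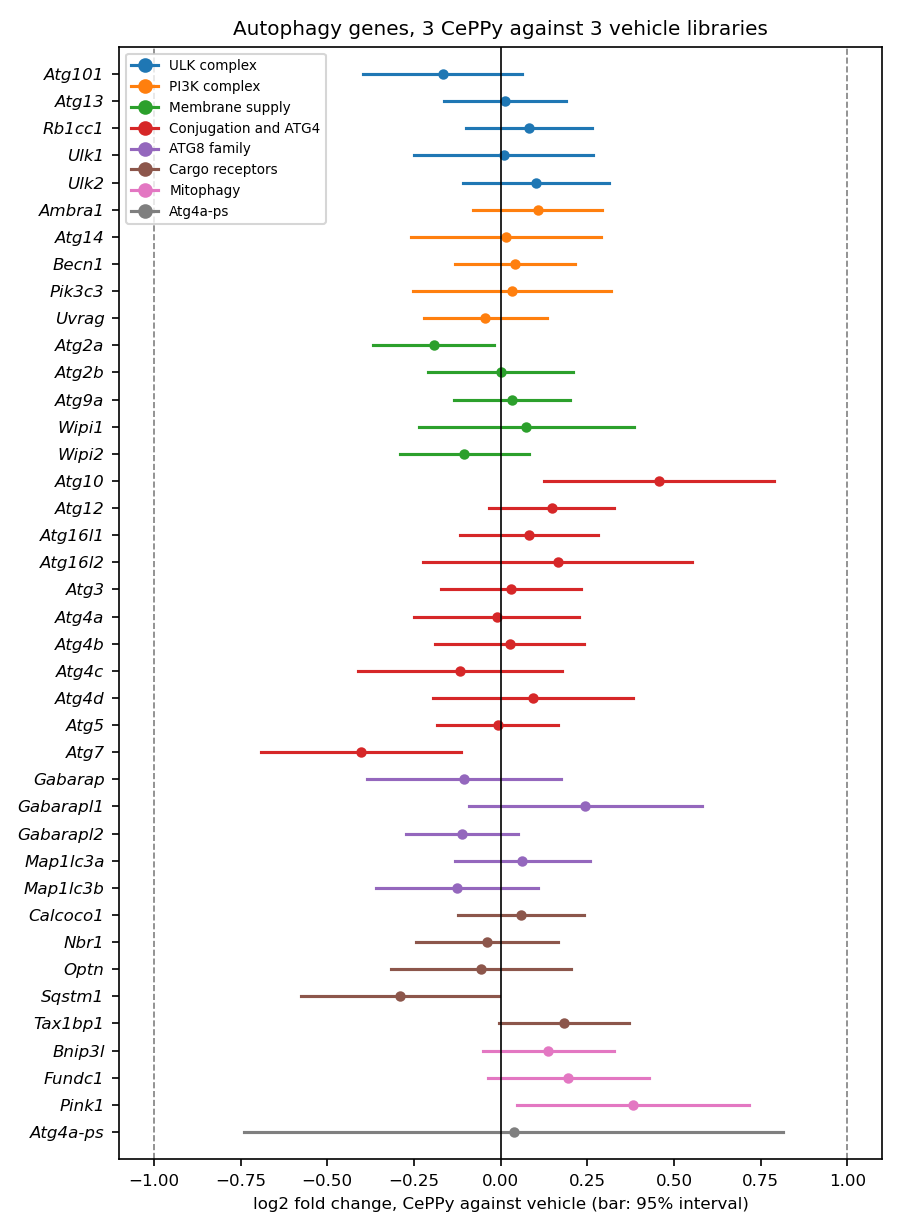
Log2 fold change, CePPy against vehicle, of 40 of the genes (points) with the 95% interval of the edgeR fit (bars), coloured by role; dashed lines mark plus and minus 1, and Atg9b (-1.62, interval from -3.92 to 0.68) is not drawn. Each interval drawn lies between the dashed lines, and only those of Atg10, Pink1, Atg7, Atg2a and Sqstm1 leave out 0.

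**Figure D2:**
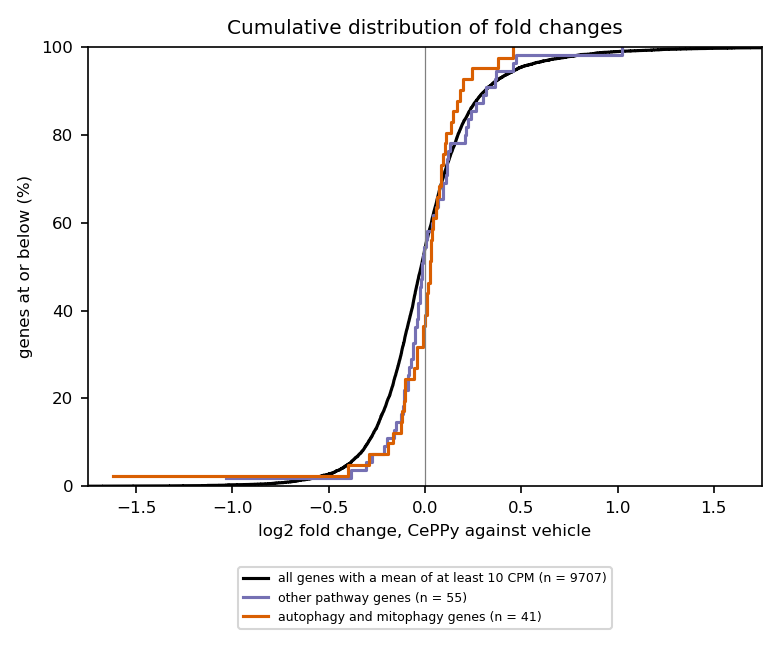
Share of genes (%, vertical axis) at or below each log2 fold change (horizontal axis) for the 41 genes, for 55 other genes of the pathway and for the 9707 genes whose mean was 10 CPM or more. The curve of the 41 genes is the steepest, with an interquartile range of 0.15 against 0.285 for the 9707 genes.

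Abundance differed among the genes far more than it did between treatments. Per kilobase of the principal transcript, Sqstm1 was the most abundant, at 423 ± 43.1 CPM per kb in the vehicle group (SD, n = 3), followed by Gabarap at 264 ± 20.2 and Gabarapl1 at 148 ± 17.5. These 3 kept their order in the CePPy group and when the length of all exons was used in place of the principal transcript. Below them came Tax1bp1 (82.0 CPM per kb), Map1lc3b (70.3), Gabarapl2 (63.5), Map1lc3a (53.1), Pink1 (47.2) and Wipi2 (46.0). By this length, cargo receptors and ATG8 proteins held all of the first 7 places. Pink1 and Wipi2 were the first neighbours whose vehicle libraries overlapped, and 22 of the 40 neighbouring pairs did so over the whole order. Most of the upstream machinery lay between 3.74 (Atg14) and 22.9 CPM per kb (Becn1). The lowest were Atg4a-ps (0.885), Atg16l2 (0.816) and Atg9b (0.130). With the length of all exons, Map1lc3a took place 4, Pink1 place 6, Tax1bp1 place 7, Map1lc3b place 9 and Wipi2 place 19. Those ranks therefore depend on the transcript chosen, as does the hold of cargo receptors and ATG8 proteins on the first 7 places. Between the groups, 16 genes kept their rank and the largest move was 6 places, by Atg7, from 20 to 26.

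**Figure D3:**
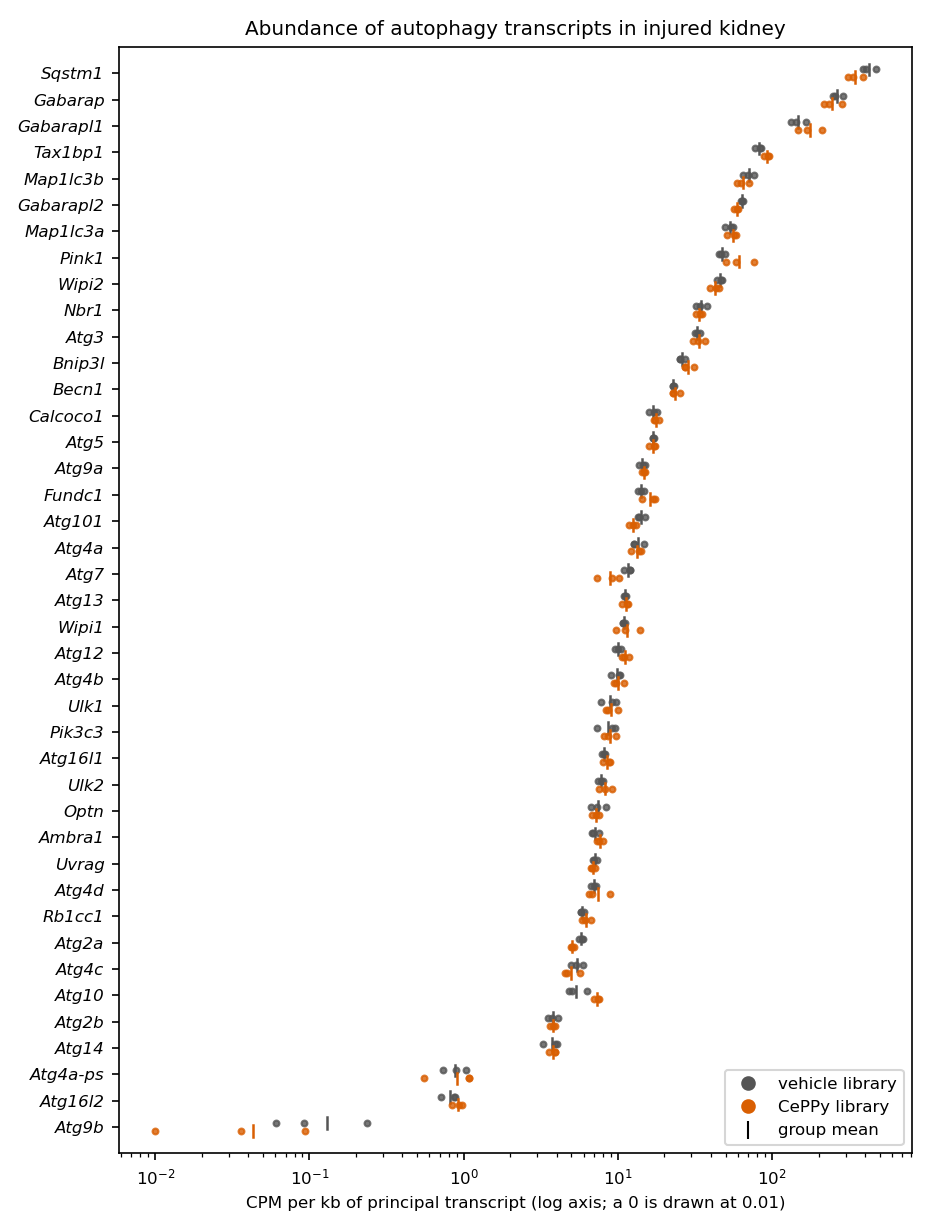
Level of each of the 41 genes in CPM per kb of principal transcript (log axis) in every library, vehicle in grey and CePPy in orange, with group means as short vertical lines; a value of 0 is drawn at 0.01. The genes span from 0.130 (Atg9b) to 423 (Sqstm1) in the vehicle mean, while the colours overlap for most genes.

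Promoter sequences came from RefSeq (GRCm38.p6), which had an entry for 33 of the 41 genes. In the 250 bases before each start, on both strands, 4 motifs were searched. The core of the antioxidant response element, TGACNNNGC, which NRF2 binds, was found for 3 of 33 genes (Atg13, Tax1bp1 and Ulk2), against 12.2% of 16517 genes. The E-box CACGTG was found for 3 (Atg3, Atg5 and Atg7), against 7.82% of genes. Its longer palindrome TCACGTGA, the core of the CLEAR element bound by TFEB and itself a match to the E-box, was found for 1 (Atg3), against 1.19%. The ATF4 element TGATGCAA was found for 0, against 0.957%. Sequences are shown for Atg3, the gene with the long palindrome, and for Sqstm1 and Pink1, whose values are described below. Each runs 5′ to 3′ on the gene's strand from 250 to 51 bases before the start, and capitals mark E-box matches, with the palindrome in capitals at its full length. That of Atg3 is chr16:45158579-45158778 on the plus strand, that of Sqstm1 chr11:50210871-50211070 on the minus strand and that of Pink1 chr4:138326347-138326546 on the minus strand.
Atg3: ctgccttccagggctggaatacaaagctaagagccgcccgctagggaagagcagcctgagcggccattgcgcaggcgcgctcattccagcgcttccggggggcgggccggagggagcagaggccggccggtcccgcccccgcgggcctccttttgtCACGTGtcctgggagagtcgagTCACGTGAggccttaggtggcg
Sqstm1: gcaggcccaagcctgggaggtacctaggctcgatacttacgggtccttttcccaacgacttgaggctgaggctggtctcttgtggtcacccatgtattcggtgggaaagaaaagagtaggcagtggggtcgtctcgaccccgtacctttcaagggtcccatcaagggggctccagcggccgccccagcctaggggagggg
Pink1: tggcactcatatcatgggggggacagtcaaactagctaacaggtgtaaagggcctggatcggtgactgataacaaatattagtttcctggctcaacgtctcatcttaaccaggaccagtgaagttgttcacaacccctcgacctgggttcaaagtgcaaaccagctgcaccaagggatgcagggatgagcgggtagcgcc
The E-box matches of Atg3 begin 94 and 71 bases before the start, and the palindrome that holds the second begins at position -72. Neither of the other windows holds any of the 4 motifs, and sequence beyond the 250 bases before a start was not searched. A match is only a string of letters, and Atg3 itself, the enzyme that passes ATG8 proteins to the lipid, had a log2 fold change of 0.029.

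Among the 5 genes of the ULK complex, which starts autophagosome formation, edgeR called 0, and the median log2 fold change was 0.013. Ulk1, the initiating kinase, measured 47.9, 40.5 and 50.9 CPM in vehicle libraries 1, 2 and 3 and 44.7, 43.7 and 51.9 CPM in CePPy libraries 1, 2 and 3. The groups overlapped in part, with a log2 fold change of 0.0084 and an interval from -0.25 to 0.27. The scaffold gene Atg13 (0.013), Rb1cc1, which encodes FIP200 (0.083), and the second kinase gene Ulk2 (0.10) also had overlapping groups. Atg101, a small ATG13 partner, measured 17.2, 18.98 and 17.5 CPM in the vehicle libraries and 15.95, 16.8 and 15.1 CPM in the CePPy libraries. Its groups did not overlap, but the log2 fold change was -0.17 with an edgeR p of 0.132.

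The 5 genes of the lipid kinase complex and its partners had a median log2 fold change of 0.033, and the groups of all 5 overlapped. Becn1, the Beclin 1 subunit, measured 101, 99.7 and 99.2 CPM in the vehicle libraries and 110, 99.4 and 99.3 CPM in the CePPy libraries. Only CePPy library 1 stood above the rest, and the log2 fold change was 0.041 with an interval from -0.13 to 0.21. Exons of Becn1 share 3104 bases with Cntd1 on the opposite strand, and no source used here says whether the counting used strand. The catalytic subunit Pik3c3 (0.033), Atg14, the subunit of the autophagy form (0.016), Uvrag, the subunit of the endosomal form (-0.044), and Ambra1, a Beclin 1 activator (0.11), completed the group.

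Of the 6 genes for membrane supply and PI3P binding, Atg2a, one of a pair of lipid transfer proteins (chromosome 19, 6241668 to 6262335, plus strand, GRCm38), had the lowest p. It measured 37.7, 35.8 and 37.5 CPM in the vehicle libraries and 32.2, 33.2 and 31.6 CPM in the CePPy libraries. Each CePPy library was below each vehicle library. The log2 fold change was -0.19 ± 0.075 (SE), the unadjusted p 0.0336 and the edgeR adjusted p 0.225. Its paralogue Atg2b had a log2 fold change of 0.0008 with overlapping groups. Atg9a, the lipid scramblase on vesicles that seed the membrane (0.032), Wipi1 (0.074) and Wipi2 (-0.11), both PI3P readers, also overlapped. Atg9b, the second scramblase gene, was counted 13, 8 and 31 times in the vehicle libraries and 5, 0 and 11 times in the CePPy libraries. Against a floor of 3 counts, or 0.07976 to 0.1 CPM, it was barely detected, and its fitted log2 fold change of -1.62 ± 0.99 (SE) had an edgeR p of 0.143. Its exons overlap Nos3 on the opposite strand by 294 bases.

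The conjugation machinery held the largest differences among the well-counted genes, and they went in opposite directions. Atg7, the E1-like enzyme that activates both ATG12 and the ATG8 proteins (chromosome 6, 114643097 to 114860614, plus strand), measured 41.4, 45.3 and 45.1 CPM in the vehicle libraries and 34.3, 27.4 and 38.1 CPM in the CePPy libraries. All 3 CePPy libraries lay below the vehicle libraries, and CePPy library 2 was the lowest. The log2 fold change was -0.40 ± 0.125 (SE), with an interval from -0.69 to -0.11, an unadjusted p of 0.0125 and an edgeR adjusted p of 0.162. Over the 13 alternative analyses it stayed between -0.51 and -0.28, and the lowest adjusted p was 0.0775, by DESeq2.

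Atg10, the E2-like enzyme that passes ATG12 to ATG5 (chromosome 13, 90935356 to 91223968, minus strand), measured 7.94, 7.59 and 9.95 CPM in the vehicle libraries and 11.99, 11.1 and 11.8 CPM in the CePPy libraries. Each CePPy library was above each vehicle library, and the 3 CePPy values lay close together. The log2 fold change was 0.46 ± 0.144 (SE), with an interval from 0.12 to 0.79, an unadjusted p of 0.0134 and an edgeR adjusted p of 0.165. The lowest adjusted p over the alternatives was 0.0785, by DESeq2, with fold changes from 0.38 to 0.58. No exon of Atg7, Atg10 or Atg2a overlaps another annotated gene.

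Atg5, the acceptor of ATG12, measured 40.2, 39.8 and 39.7 CPM in the vehicle libraries and 40.6, 37.4 and 41.0 CPM in the CePPy libraries. The groups overlapped and the log2 fold change was -0.0082. Atg12, the ubiquitin-like modifier, did not overlap, with 45.9 to 49.97 CPM against 50.7 to 56.5 CPM, a log2 fold change of 0.15 and an edgeR p of 0.097. Atg16l1, which directs the conjugate to the membrane (0.081), and its less abundant paralogue Atg16l2 (0.16) overlapped. So did the proteases that process ATG8 proteins, Atg4a (-0.011), Atg4b (0.026), Atg4c (-0.12) and Atg4d (0.093). The row Atg4a-ps, a pseudogene by its symbol but annotated as protein coding, measured at most 2.31 CPM in any library (0.037). Reads of Atg4a and Atg4a-ps may be shared, and its exons overlap Syt6 on the opposite strand by 505 bases.

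**Figure D4:**
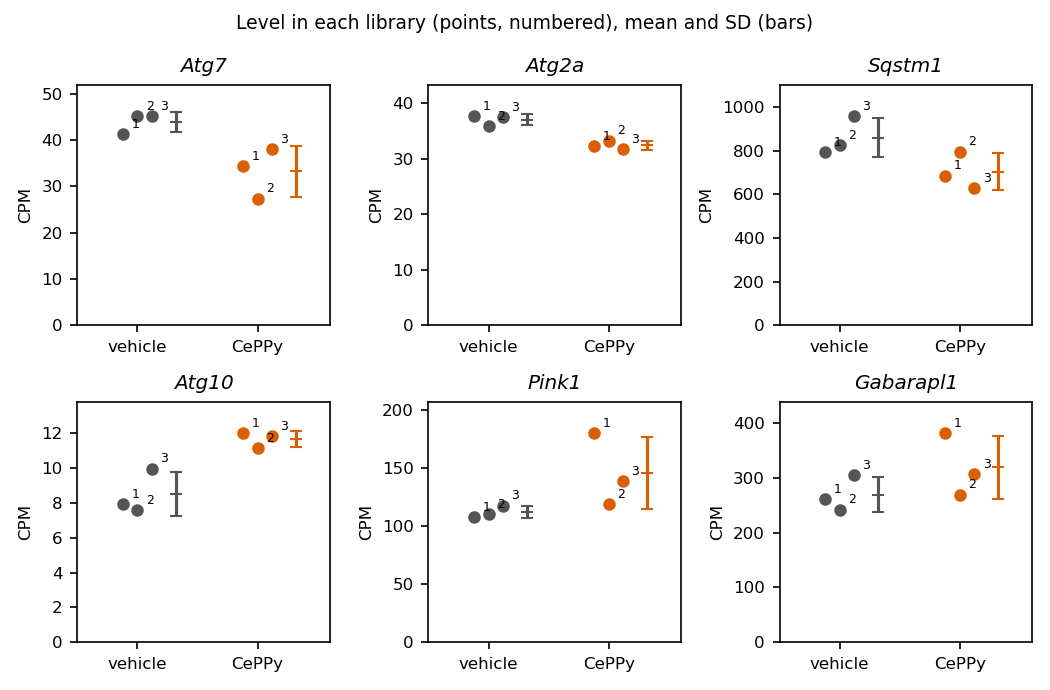
Level in CPM (vertical axes, from 0) of 6 genes in each library, numbered by replicate, with group mean and SD as bars (n = 3). Atg7 and Atg2a lie lower and Atg10 and Pink1 higher in each CePPy library than in any vehicle library, whereas Sqstm1 and Gabarapl1 overlap.

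Of the 5 ATG8 genes, edgeR called 0 and none reached an unadjusted p of 0.05. Map1lc3b, the usual LC3 marker gene of autophagosomes, measured 176, 165 and 193 CPM in the vehicle libraries and 181, 160 and 150 CPM in the CePPy libraries. The groups overlapped, with a log2 fold change of -0.13 and an interval from -0.36 to 0.11. Map1lc3a, the other LC3 gene, measured 60.0, 55.2 and 62.0 CPM against 65.2, 57.1 and 62.7 CPM. It overlapped likewise, with a log2 fold change of 0.063. Gabarapl1 (chromosome 6, 129533160 to 129542346, plus strand) measured 261, 242 and 304 CPM against 381, 269 and 306 CPM. CePPy library 1 stood well above the rest, and the log2 fold change was 0.24 ± 0.145 (SE) with an edgeR p of 0.132. Exons of Gabarapl1 share 570 bases with 1700101I11Rik on the opposite strand. Gabarap had a log2 fold change of -0.11 with overlapping groups. Gabarapl2 had the same value of -0.11, and its CePPy libraries (94.9 to 101 CPM) lay below its vehicle libraries (105 to 108 CPM), with an edgeR p of 0.151.

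Sqstm1, which encodes the receptor p62 and is a known NRF2 target (chromosome 11, 50199366 to 50210827, minus strand), measured 795, 827 and 961 CPM in the vehicle libraries and 687, 797 and 629 CPM in the CePPy libraries. CePPy library 2 lay just above vehicle library 1, so the groups overlapped, while CePPy libraries 1 and 3 were the lowest. The log2 fold change was -0.29 ± 0.123 (SE), with an interval from -0.58 to -0.0049, an unadjusted p of 0.047 and an edgeR adjusted p of 0.256. The lowest adjusted p over the alternatives was 0.1004, without CePPy library 2. Exons of Sqstm1 share 580 bases with Mrnip on the opposite strand. The list of 10 NRF2 target genes had a mean log2 difference from the vehicle mean of -0.621, -0.471 and -0.548 in CePPy libraries 1, 2 and 3, so each CePPy library was lower. Its summed level was 2339 to 2567 CPM in the vehicle libraries and 1736 to 1870 CPM in the CePPy libraries, 8 of the 10 genes had a fold change below 0, and none was at 0 counts throughout. Its part in the values of Sqstm1 was not tested.

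The other receptors differed less between the groups. Tax1bp1 measured 255, 276 and 278 CPM against 314, 293 and 310 CPM, and each CePPy library was above each vehicle library. Its log2 fold change was 0.18 with an edgeR p of 0.0551. Nbr1, which acts with p62 on ubiquitinated cargo (-0.040), Optn, a receptor of ubiquitinated mitochondria and bacteria (-0.057), and Calcoco1, a receptor for the endoplasmic reticulum (0.059), overlapped between the groups.

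The 3 mitophagy genes all had fold changes above 0, with a median of 0.20, and edgeR called 0 of them. Pink1, the kinase that marks depolarised mitochondria (chromosome 4, 138313409 to 138326307, minus strand), measured 108, 110 and 118 CPM in the vehicle libraries and 180, 119 and 139 CPM in the CePPy libraries. Each CePPy library was above each vehicle library, but CePPy library 2 only just, and CePPy library 1 was the highest by far. The log2 fold change was 0.38 ± 0.145 (SE), with an interval from 0.047 to 0.72, an unadjusted p of 0.0303 and an edgeR adjusted p of 0.215. Without CePPy library 1 the fold change was 0.20, the lowest of 13 alternatives, and without CePPy library 2 it was 0.51, the highest, with an edgeR adjusted p of 0.0606.

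Bnip3l, the outer membrane receptor NIX, measured 87.6, 82.5 and 81.8 CPM against 100, 87.9 and 88.9 CPM. Its groups did not overlap, though CePPy library 2 was within 1 CPM of vehicle library 1, and the log2 fold change was 0.14 with an edgeR p of 0.133. Fundc1, another outer membrane receptor, overlapped, with a log2 fold change of 0.20 and an edgeR p of 0.0876.

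Tubule markers ordered the CePPy libraries as the mean of the mitophagy genes did. The first principal component of all genes gave the same order, so it is not particular to these lists. The mean log2 difference of the 3 mitophagy genes from the vehicle mean was 0.402, 0.058 and 0.227 in CePPy libraries 1, 2 and 3. Of the 3, Fundc1 did not follow that order, with 34.3 CPM in CePPy library 3 and 33.7 CPM in CePPy library 1. The mean over all 41 genes was 0.064, -0.117 and 0.027, again in that order. The barely detected Atg9b, with 0 counts in CePPy library 2, differed by -2.44 there and so lowered the mean of that library. The 12 proximal tubule markers gave 1.073, 0.109 and 0.64, all 12 having a fold change above 0, with summed levels of 12575 to 13990 CPM in the vehicle libraries and 13167 to 24592 CPM in the CePPy libraries. The 5 thick ascending limb markers gave 1.968, 0.501 and 1.158, with summed levels of 2610 to 2917 and 3381 to 6220 CPM. The 10 tubular injury genes gave -1.262, -0.23 and -0.477, with 9 of 10 below 0 and summed levels of 31087 to 32004 and 17552 to 33732 CPM. Neutrophil markers were low throughout, with summed levels of 35.6 to 54.9 CPM in the vehicle libraries and 10.6 to 24.7 CPM in the CePPy libraries, and their defining gene Ly6g was at most 0.327 CPM. The part of these markers in the values of the autophagy genes was not tested. In whole kidney RNA, fewer cells of a type and less RNA per cell cannot be told apart.

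**Figure D5:**
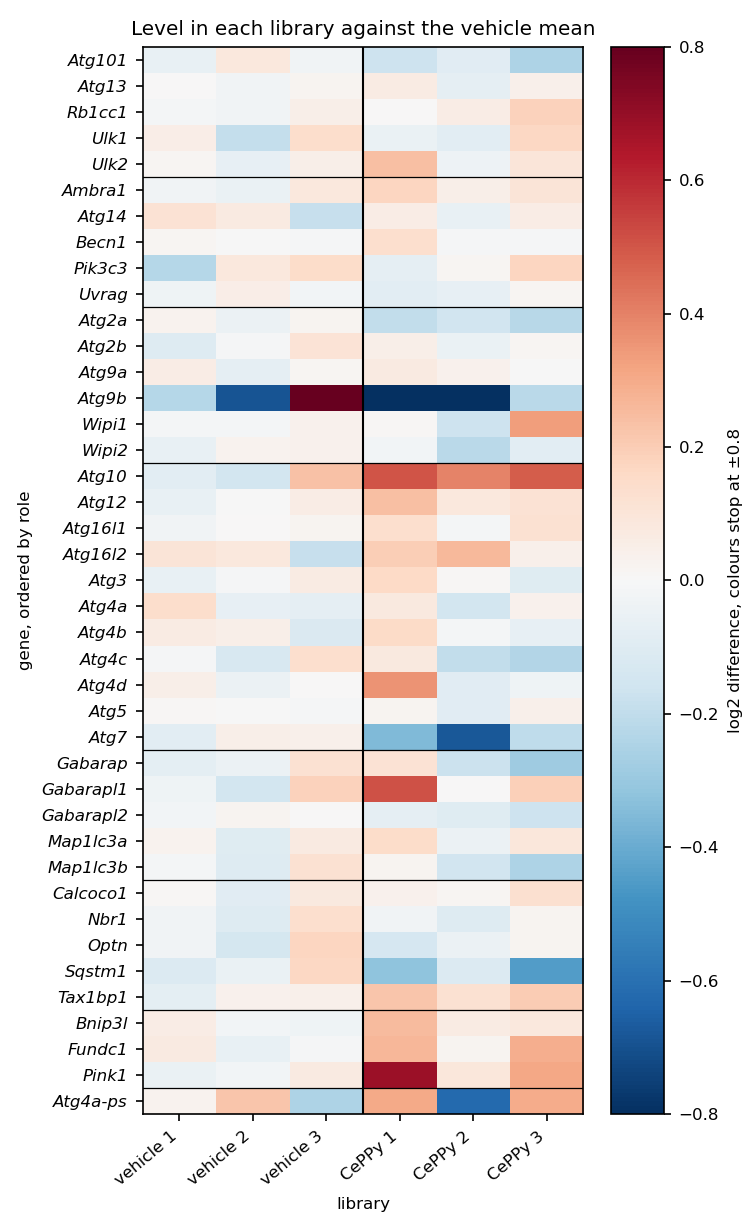
Log2 difference of each gene in each library from the vehicle mean of that gene (colour, stopping at plus and minus 0.8), with genes ordered by role (horizontal lines) and the vertical line between vehicle and CePPy libraries. CePPy library 1 holds the highest value for 17 of the 41 genes and the lowest for 1, whereas CePPy library 2 holds the highest for 1 and the lowest for 9. Vehicle library 2 holds the lowest for 12, the most of any library, and vehicle library 3 the highest for 9. The same counts over all genes were not computed.

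Ratios of related genes within a library do not depend on how libraries are scaled. No share of groups without overlap was computed over ratios of other genes, and over all single genes tested it was 26.3%. The groups did not overlap for 4 of the 14 ratios computed. With 3 libraries against 3 the exact two-sided permutation test cannot go below 0.1, which these 4 reached, and the Benjamini-Hochberg adjusted p over the 14 was 0.35. The log2 ratio of Gabarapl1 to Gabarap counts was -0.37, -0.51 and -0.35 in the vehicle libraries and -0.015, -0.24 and 0.065 in the CePPy libraries. All 3 CePPy values were the higher ones, and the mean difference was 0.35. The log2 ratio of Map1lc3b to Map1lc3a was 1.55, 1.58 and 1.64 against 1.47, 1.48 and 1.25, a mean difference of -0.19 with all 3 CePPy values lower. Atg2a to Atg2b differed by -0.20 and Atg4c to Atg4d by -0.20, also without overlap. The ratio of Sqstm1 to Nbr1 had a mean difference of -0.26, and that of Sqstm1 to Optn of -0.24, each with overlapping groups and an exact permutation p of 0.2.

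A further 56 genes of the pathway, among them its upstream regulators, fusion factors and other receptors, were listed for comparison. Of these, 55 were tested, and Calcoco2 was at 0 counts in all libraries. EdgeR called 0 of 55, and 11, or 20%, had an unadjusted p under 0.05, close to the 19.0% of all genes. These were 7 higher (12.7%, against 9.65% of all genes) and 4 lower (7.27%, against 9.37%). Without CePPy library 1 they were 3 higher and 8 lower. The number higher was 3 without vehicle library 2 or 3 and 4 without vehicle library 1 or CePPy library 3. For these smaller fits the share of all genes was not computed. The groups did not overlap for 14 of 55, or 25.5%, against 26.3%. DESeq2 called 5 of 55, or 9.09%, against 7.07% of all genes, and the median log2 fold change was -0.016.

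Of these, Ddit4, the stress-induced inhibitor of mTORC1 also called REDD1, measured 52.1, 52.8 and 73.0 CPM in the vehicle libraries and 18.5, 36.1 and 32.5 CPM in the CePPy libraries. All CePPy values were lower, with a log2 fold change of -1.03 ± 0.245 (SE), an edgeR adjusted p of 0.117 and a DESeq2 adjusted p of 0.0013. Trp53inp2, a nuclear protein that moves to autophagosomes, measured 154, 163 and 172 CPM against 249, 194 and 229 CPM. All CePPy values were higher, with a log2 fold change of 0.46 ± 0.108 (SE), an edgeR adjusted p of 0.116 and a DESeq2 adjusted p of 0.00516. Vmp1, a lipid scramblase of the endoplasmic reticulum needed for autophagosome formation, measured 217, 198 and 226 CPM against 139, 178 and 173 CPM. All CePPy values were lower, with a log2 fold change of -0.39, an edgeR adjusted p of 0.148 and a DESeq2 adjusted p of 0.0359.

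The other genes that DESeq2 called belong to mitophagy and went in opposite directions. The 11 mitophagy genes of the comparison list had a median log2 fold change of 0.068, with quartiles of -0.075 and 0.244. Bnip3, the paralogue of Bnip3l, measured 88.3, 88.0 and 95.1 CPM against 147, 104 and 125 CPM. As for Pink1, CePPy library 1 was the highest and CePPy library 2 the lowest of its group, and the log2 fold change was 0.47 ± 0.126 (SE), with an edgeR adjusted p of 0.134 and a DESeq2 adjusted p of 0.0198. Phb2, a prohibitin of the inner mitochondrial membrane that can bind LC3, measured 207, 210 and 211 CPM against 170, 181 and 169 CPM. Both groups were tight and apart, with a log2 fold change of -0.27 ± 0.074 (SE), an edgeR adjusted p of 0.136 and a DESeq2 adjusted p of 0.0164.

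The remaining genes with an unadjusted edgeR p under 0.05 had higher values for Nipsnap2 (0.26), Foxo3 (0.21), Sec62 (0.30), Bcl2 (0.36) and Ccpg1 (0.21) and lower values for Plekhm1 (-0.31), each as a log2 fold change. Nipsnap2 is a mitochondrial protein that recruits receptors to damaged mitochondria, Foxo3 is a transcription factor of autophagy genes, Sec62 and Ccpg1 are receptors for the endoplasmic reticulum, Bcl2 binds Beclin 1, and Plekhm1 links autophagosomes to lysosomes. Rheb, the activator of mTORC1, had a log2 fold change of -0.16 with an edgeR p of 0.063. Tfeb, the main transcription factor of lysosomal and autophagy genes, measured 29.8, 36.0 and 33.2 CPM against 28.2, 28.4 and 29.7 CPM. Its groups just failed to overlap, with a log2 fold change of -0.20 and an edgeR p of 0.0686.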

How the data were processed

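RNA of whole kidney was sequenced in 6 libraries. TRIzol was used for extraction and 2 µg of total RNA per library for a Yeasen mRNA kit, per the labels' protocols. The deposited table holds the authors' raw count of reads for each gene and library, in whole numbers with no normalization. The submitters' processing notes name TopHat2, Cufflinks, DESeq and the build GRCm38. No source used here names the counting program, its use of strand or the annotation. Of the 41 genes, 16 share exon bases with another gene in GENCODE M21, 15 of them on the opposite strand. Groups come from the sample titles.

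Counts were filtered with filterByExpr, which all 41 genes passed, scaled by TMM and tested by quasi-likelihood in edgeR 4.0.16 under R 4.3.3 (treatment as the only term, 4 residual degrees of freedom), with a threshold of 0.05 after Benjamini-Hochberg adjustment over 15416 genes. The common biological coefficient of variation was 0.186. The code was tested on simulated data with a smaller coefficient of variation and with larger changes than those of the well-counted autophagy genes. That test therefore does not show how well changes of the size described here are recovered. Libraries of a group differed by more than sampling noise (chi-square per degree of freedom of 19.68 to 105.6). Alternatives were DESeq2 1.42.0, limma-voom (limma 3.58.1) with and without sample weights, other scalings, no filter, a replicate block, and leaving out each library. Ratios used counts plus 0.5 and exact permutation tests (scipy 1.17.1). List levels are means of log2(CPM + 0.1). No sample was left out.

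The members, roles, lists and tests were chosen with earlier results of these data known. Among the 41 genes, values in every library were given for those with an unadjusted p under 0.05. They were also given for Sqstm1, Map1lc3b, Map1lc3a, Gabarapl1, Becn1, Ulk1, Atg5, Atg7, Pink1 and Bnip3l. Of the comparison list, the 12 genes with the lowest p were named, with Tfeb and Bnip3. The values of 1 other gene of that list are not reported here. Values of Tax1bp1, Atg101, Atg12, Gabarapl2 and Atg9b were added after they were seen.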

Additional observations from a re-analysis of the deposited data

How the results depend on the processing

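Under all 13 alternatives, 0 of the 41 autophagy and mitophagy genes passed the adjusted threshold. The number of genes called among all tested, 1 with edgeR, was 63 without a filter, 1026 with DESeq2, 352 with limma-voom and sample weights, 0 with the replicate block and 0 to 811 when 1 library was left out (811 without CePPy library 2, 6 without vehicle library 2). Among the 41 genes, those higher at an unadjusted p under 0.05 numbered 4 with sample weights and 1 to 5 when 1 library was left out, and those lower numbered 1 with the replicate block and 1 to 3 when 1 library was left out. Of the 55 other pathway genes, DESeq2 called 5, limma-voom with sample weights 1, and edgeR 0 to 3 with 1 library left out (3 without CePPy library 2, 1 without vehicle library 2). Those higher at an unadjusted p under 0.05 numbered 4 with the replicate block and 3 to 7 with 1 library left out, and those lower 3 to 8. The cause of these differences was not tested. For the alternatives, the share of all genes at an unadjusted p under 0.05 was not computed, so those counts have no background. The replicate numbers gave no sign of paired libraries, though these values cannot exclude pairing: deviations of same-numbered libraries correlated at -0.15, 0.098 and -0.021. The replicate block changed no call among the 41 genes.

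Single genes reversed in 41 of 533 cases, all for genes whose log2 fold change lay between -0.057 and 0.093. With total counts in place of TMM, Ulk1 (-0.0135), Atg13 (-0.0136), Atg14 (-0.0135), Atg2b (-0.0239) and Atg4b (-0.0041) turned negative. With sample weights, Atg2b (-0.0001), Atg3 (-0.036) and Atg4b (-0.0202) turned negative and Atg5 (0.0044) positive. Atg2b also turned without a filter (-0.0001), and Atg4a-ps with limma-voom (-0.0372) and the replicate block (-0.0029). With 1 library left out, fold changes spanned 0 for Ulk1 (-0.0801 to 0.0787), Atg13 (-0.0119 to 0.0516), Pik3c3 (-0.075 to 0.1062), Becn1 (-0.0051 to 0.0684), Atg14 (-0.0728 to 0.0714), Atg9a (-0.0018 to 0.0606), Atg2b (-0.0495 to 0.0577), Wipi1 (-0.0724 to 0.1821), Atg3 (-0.039 to 0.0905), Atg4a (-0.054 to 0.0619), Atg4b (-0.0402 to 0.0729), Atg4d (-0.06 to 0.1771), Atg5 (-0.0294 to 0.0318), Nbr1 (-0.0898 to 0.0286), Optn (-0.1241 to 0.0313) and Atg4a-ps (-0.1154 to 0.2979). So did the ratios Gabarapl2 to Gabarap (-0.0598 to 0.0945), Map1lc3b to Gabarapl2 (-0.0788 to 0.0448), Ulk1 to Ulk2 (-0.1642 to 0.0138), Atg4b to Atg4a (-0.0117 to 0.1028), Atg16l1 to Atg16l2 (-0.1695 to 0.0196) and Bnip3l to Fundc1 (-0.109 to 0.0187). Atg7, Atg2a, Sqstm1, Atg10 and Pink1 kept their direction under all 13. Depth limits Atg9b, with 0 to 31 counts, and Atg4a-ps, with 44 to 82.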

Other observations

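Mitf, a transcription factor of the TFEB family and one of the 55 pathway genes tested, had 2 levels among the vehicle libraries. It measured 2.73, 12.6 and 2.73 CPM in vehicle libraries 1, 2 and 3 (98, 427 and 92 counts) and 11.96, 12.1 and 12.6 CPM in the CePPy libraries (425, 454 and 379 counts). Vehicle library 2 thus lay at the level of the CePPy libraries. The edgeR log2 fold change was 1.02 with an adjusted p of 0.351, and without vehicle library 2 it was 2.16 with an adjusted p of 0.0302. Of 11256 genes averaging 5 CPM or more, Mitf was the only 1 with the CePPy libraries and 1 vehicle library within 1.5-fold of each other and the other vehicle libraries at least 2-fold lower. This pattern was found for no gene with vehicle library 1 or 3 as the odd library. Mitf and the pattern were chosen after their values were seen, and the cause was not tested.

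Stx17, the SNARE protein that fuses autophagosomes with lysosomes, measured 14.5 CPM in vehicle library 1 and between 22.9 and 24.5 CPM in the other 5 libraries. Its edgeR log2 fold change was 0.24 with an adjusted p of 0.484, and without vehicle library 1 it was 0.049. It too was chosen after its values were seen.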
